A study of Mus musculus with 34 samples.

Results

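The 6 copies of Zscan4 named a to f, Tcstv1, Tcstv3 and Zfp352 are genes that mouse embryonic stem cells (mESCs) share with the 2-cell embryo. They were taken as the 9 rows with these symbols among the 23366 gene symbols of the deposited RNA-seq table. The table compares J1 mESCs grown in serum without leukemia inhibitory factor (-LIF) with J1 mESCs grown in serum without LIF and with 0.5 mg/ml Royalactin, a honeybee royal jelly protein (-LIF+RA). Here RA stands for Royalactin and not for retinoic acid. Both groups lacked LIF, and both came from the single J1 line, which the sample labels place at passage 40. The study's legend for its RNA-seq gives a lower passage number. The labels give no time without LIF or with Royalactin for these libraries. Each group had 2 libraries, which the study's design text calls biological duplicates at the least. The ATAC-seq samples, which make up most of the 34 samples of the series and include its only samples with LIF, were not analysed here.

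The 2-cell-like state is a rare and transient state of mESCs. A few cells of a culture switch on genes that are otherwise transcribed when the zygotic genome is activated. Zscan4 encodes proteins with a SCAN domain, which binds other SCAN domain proteins, and with zinc fingers, and it is known for telomere lengthening and genome stability in mESCs. Tcstv1 and Tcstv3 belong to a small gene family of the same embryonic stage, and Zfp352 is a zinc finger gene transcribed in the 2-cell embryo. In the bulk RNA used here, fewer cells in the state and less RNA per cell cannot be told apart.

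The Zscan4 copies lie side by side on chromosome 7 and are close to identical, so the sequences come before the values. In mm9, the build of the deposited alignment, Zscan4b spans chr7:11486098-11490399, Zscan4c chr7:11591071-11595896, Zscan4d chr7:11746992-11751497, Zscan4e chr7:11891727-11896031 and Zscan4f chr7:11983264-11988090. Zscan4c and Zscan4f lie on the plus strand and the other 3 on the minus strand, and the GENCODE annotation of this build calls all 5 protein coding. Zfp352 is on the plus strand at chr4:89885511-89892393. Zscan4a, Tcstv1 and Tcstv3 had no gene model in the annotation used and are given without a position. The mouse RefSeq table lists Zscan4a as a transcribed pseudogene and Zscan4e as a pseudogene.

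Over the coding sequence, Zscan4b and Zscan4e differed at 4 of 1515 positions (99.7% identity), and Zscan4c and Zscan4f at 6 of 1518 (99.6%). The least similar pair was Zscan4b and Zscan4d, with 51 substitutions (96.6%). The following 75 bases, 1 read length, are the stretch of coding sequence in which the 5 copies differ most among the 1219 windows without gaps. They are shown because in mm9 a read of one copy is most easily told from a read of another here. The mm9 sequence comes from another mouse strain than J1 cells, and whether the copies in these cells match it was not examined. The 75 bases lie within coding exons, at coding positions 624 to 698 counted from the A of the start codon. Capitals mark the 8 positions at which any copy differs.
Zscan4b, chr7:11486966-11487040, minus strand: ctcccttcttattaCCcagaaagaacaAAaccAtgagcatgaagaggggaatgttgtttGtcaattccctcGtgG
Zscan4c, chr7:11594448-11594522, plus strand: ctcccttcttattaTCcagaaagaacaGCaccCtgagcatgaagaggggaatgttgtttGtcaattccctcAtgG
Zscan4d, chr7:11748093-11748167, minus strand: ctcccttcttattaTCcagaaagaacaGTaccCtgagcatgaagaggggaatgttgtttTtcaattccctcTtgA
Zscan4e, chr7:11892595-11892669, minus strand: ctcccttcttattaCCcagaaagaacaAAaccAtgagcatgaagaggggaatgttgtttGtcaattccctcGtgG
Zscan4f, chr7:11986641-11986715, plus strand: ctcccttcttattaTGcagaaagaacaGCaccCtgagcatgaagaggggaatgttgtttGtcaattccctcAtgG

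Even in this window Zscan4b and Zscan4e were identical, so the 5 copies gave 4 distinct sequences. At the other end, the window at coding positions 130 to 204 was identical in all 5 copies, and a read from it carries no mark of its origin. It is shown as it stands in Zscan4c on the plus strand.
Zscan4c, chr7:11592034-11592108, plus strand: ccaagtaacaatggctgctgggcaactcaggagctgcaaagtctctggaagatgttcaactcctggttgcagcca

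To see how much of each gene a 75-base read can place, every 75-base tile within an exon was compared with the whole of mm9. For Zscan4f, 96.3% of tiles had an identical copy elsewhere, and only 77 of 2060 tiles were unique. For Zscan4e the share was 91.2%, for Zscan4b 88.3% and for Zscan4c 76.7%. Zscan4d was the most distinct copy, with 39.1% of tiles copied exactly and 1033 of 1696 unique. When up to 2 substitutions were allowed, the number of mismatches that the authors' alignment accepted, every tile of Zscan4b, Zscan4e and Zscan4f matched another place. The shares were then 93.8% for Zscan4c and 84.2% for Zscan4d. Zfp352 shared 3.03% of its tiles exactly and 35.6% with up to 2 substitutions, nearly all with other chromosomes. The count of a single Zscan4 copy is therefore uncertain in this table, among the copies measured most of all for Zscan4b, Zscan4e and Zscan4f. Zscan4a, without a gene model, was not measured.

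**Figure D1:**
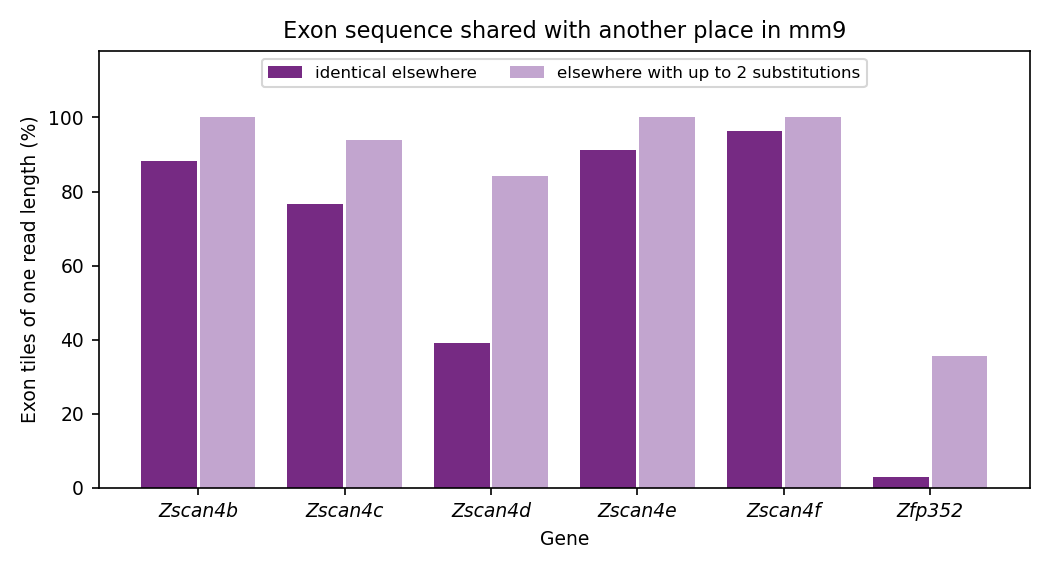
Share of the 75-base exon tiles of each gene (percent, y axis) that occur elsewhere in mm9, identical (dark bars) or with up to 2 substitutions (light bars). The exact share runs from 3.03% for Zfp352 and 39.1% for Zscan4d to 96.3% for Zscan4f, and with 2 substitutions it is 100% for Zscan4b, Zscan4e and Zscan4f.

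The copies are close to identical upstream of the gene too. In the RefSeq promoter table (GRCm38.p6), which held 5 of the 9 genes, the 250 bases before the start differed at 1 aligned position between Zscan4c and Zscan4f (99.6% identity), and the least similar pair was Zscan4b and Zscan4c (94.7%). All 4 Zscan4 promoters held the TATA box letters TATAAA on the sense strand, which 7.59% of the 32851 promoters of the table hold within 250 bases of the start (12.4% on either strand). The stretch around it is shown with TATAAA in capitals, on the strand of each gene.
Zscan4b, chr7:10905051-10905141, minus strand: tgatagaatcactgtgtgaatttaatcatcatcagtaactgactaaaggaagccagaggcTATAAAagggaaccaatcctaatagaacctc
Zscan4c, chr7:11005631-11005726, plus strand: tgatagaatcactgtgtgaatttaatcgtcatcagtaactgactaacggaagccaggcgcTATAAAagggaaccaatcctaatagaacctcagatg
Zscan4d, chr7:11166178-11166273, minus strand: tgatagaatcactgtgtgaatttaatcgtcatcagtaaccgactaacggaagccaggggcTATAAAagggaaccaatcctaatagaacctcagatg
Zscan4f, chr7:11397824-11397914, plus strand: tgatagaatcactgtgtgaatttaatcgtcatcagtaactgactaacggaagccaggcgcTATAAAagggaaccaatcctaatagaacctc

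The promoter of Zfp352 held no TATAAA in the same 250 bases. These matches are a description of the letters and say nothing about which factors bind.

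The values are read counts per gene divided by a size factor of the library, called normalized counts here. In each library they are whole multiples of 1 step, the worth of 1 read, which gave the read numbers. Between 14737796 and 17597818 reads fell on genes in each library, and 7878527 to 15999458 of them fell outside Rn45s, the ribosomal RNA precursor. Rn45s took 46.6% and 21.6% of reads in -LIF replicates 1 and 2 and 38.4% and 9.08% in -LIF+RA replicates 1 and 2, so usable depth was lowest in -LIF replicate 1 and highest in -LIF+RA replicate 2. ES cell markers were read in all 4 libraries, including Pou5f1 (Oct4) at 4996 to 7453 normalized counts. A floor of 3 reads, used for genes without reads, was worth 4.01 and 3.11 normalized counts in the -LIF libraries and 3.02 and 2.07 in the -LIF+RA libraries. Floors and intervals from reads cover counting error only, because PCR copies are not separate molecules.

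The Zscan4 copies and Zfp352 were read at low levels with and without Royalactin, and none of them passed the test for a difference. Of the 9 genes, 7 had at least 1 read and 5 reached the mean of 10 normalized counts that was set for testing. None of the 5 passed an adjusted p of 0.05 in limma (Benjamini-Hochberg over 12993 genes), against 64 genes or 0.493% of all tested, of which 43 were higher and 21 lower with Royalactin. None of the 5 had an unadjusted limma p under 0.05 either, against 9.34% of all tested genes. The members just inside the filter were Zfp352 and Zscan4a, with means of 13.3 and 13.4, and those just outside were Zscan4b and Zscan4e, with 9.95 and 7.46. With 2 libraries in each group, an exact permutation test of a single value cannot go below p = 0.333.

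Zscan4d had the most reads of the 9 genes in every library but -LIF+RA replicate 2, where Zscan4f had more. It had 53.5 and 94.2 normalized counts in -LIF replicates 1 and 2 (40 and 91 reads) and 78.5 and 41.3 in -LIF+RA replicates 1 and 2 (78 and 60 reads). The libraries of the groups alternated when ordered by value, so the groups overlapped. The means were 73.8 ± 28.8 and 59.9 ± 26.3 (SD, n = 2), and the log2 fold change was -0.31 with a 95% interval from -1.78 to 1.16 (limma, Benjamini-Hochberg adjusted p = 0.928).

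Zscan4c, whose promoter is widely used to report the state in mESCs, had 10.7 and 83.8 normalized counts in the -LIF replicates (8 and 81 reads) and 0 and 33.7 in the -LIF+RA replicates (0 and 49 reads). Both groups held a low and a high library, and they overlapped. The log2 fold change was -2.42, with an interval from -6.15 to 1.32 (limma, Benjamini-Hochberg adjusted p = 0.727). It was carried by the library without reads, and without -LIF+RA replicate 1 it was 0.14.

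Zscan4f, which differs from Zscan4c at 6 coding positions, had 36.1 and 16.6 normalized counts in the -LIF replicates (27 and 16 reads). It had 1.01 and 50.9 in the -LIF+RA replicates (1 and 74 reads). The -LIF+RA libraries were thus the lowest and the highest of the 4, on either side of both -LIF libraries. The group means were nearly equal, at 26.3 ± 13.8 and 26.0 ± 35.3 (SD, n = 2). On the log scale the difference was -1.32, with an interval from -4.61 to 1.96 (limma, Benjamini-Hochberg adjusted p = 0.843), and without -LIF+RA replicate 1 it was 1.02.

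Zscan4a had 8.02 and 1.04 normalized counts in the -LIF replicates (6 reads and 1 read) and 17.1 and 27.5 in the -LIF+RA replicates (17 and 40 reads). Both -LIF+RA libraries lay above both -LIF libraries, as they did for 19.7% of all tested genes. The log2 fold change was 2.41 with an interval from -1.07 to 5.88, and it did not pass the test (limma, Benjamini-Hochberg adjusted p = 0.702). It rested on 7 reads in the -LIF libraries together, and it was 1.33 without -LIF replicate 2 and 3.48 without -LIF replicate 1. How much sequence Zscan4a shares with the other copies was not measured.

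Zscan4e was the only member lower in both -LIF+RA libraries, where it had no read. It had 26.7 and 3.11 normalized counts in the -LIF replicates, from 20 and 3 reads. Against a floor of 3 reads in each -LIF+RA library, the -LIF mean of 14.9 was at least 5.87-fold higher, but -LIF replicate 2 was itself at that number of reads. The gene was below the filter and was not tested, and both -LIF+RA libraries lay below both -LIF libraries for 18.9% of tested genes. Only 128 of its 1449 tiles were unique.

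Zscan4b, almost the same sequence as Zscan4e, had 16.0 and 1.04 normalized counts in the -LIF replicates and 0 and 22.7 in the -LIF+RA replicates. The last of these rested on 33 reads, in the library in which Zscan4e had none. The groups overlapped, and the gene was below the filter.

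Zfp352 had no read in -LIF replicate 1 and 27.9 normalized counts in -LIF replicate 2, from 27 reads. In the -LIF+RA replicates it had 6.04 and 19.3, from 6 and 28 reads. Its 2 extreme values were both -LIF libraries. The log2 fold change was 1.15 with an interval from -3.13 to 5.43 (limma, Benjamini-Hochberg adjusted p = 0.901), although the group means, 14.0 ± 19.8 and 12.7 ± 9.36 (SD, n = 2), lay the other way. Without -LIF replicate 1 it was -1.28.

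Tcstv1 and Tcstv3 had no read in any of the 4 libraries. The floor for each is the 3 reads given above, and no fold change can be given.

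**Figure D2:**
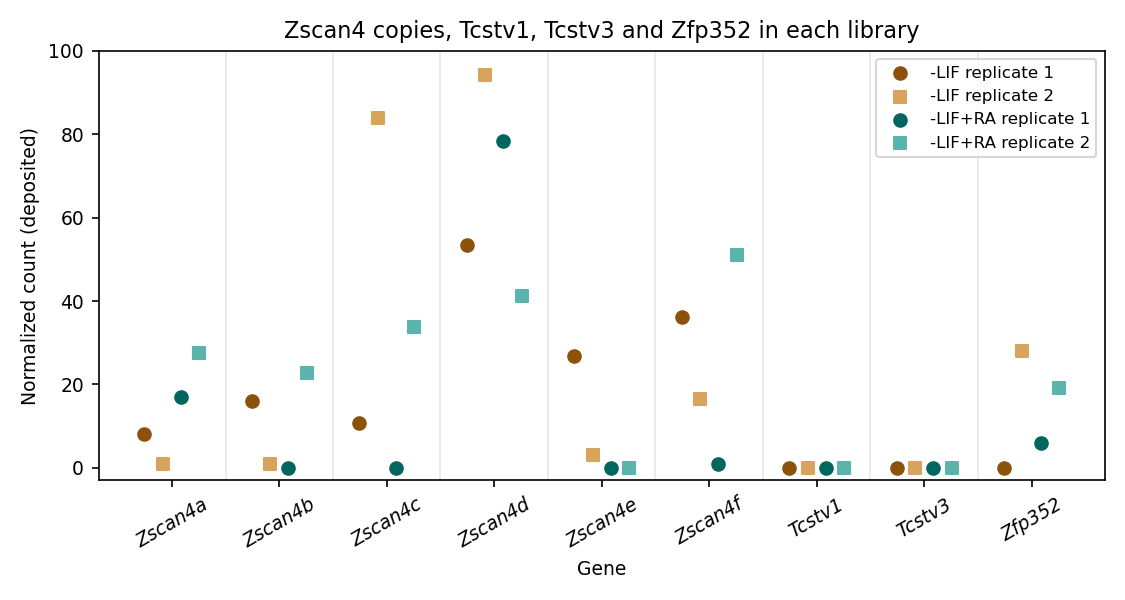
Normalized counts (y axis, linear) of the 9 genes (x axis) in each of the 4 libraries, brown for -LIF and green for -LIF+RA, circles for replicate 1 and squares for replicate 2. The libraries of a group were often farther apart than the groups, as for Zscan4c (10.7 and 83.8 in -LIF) and Zscan4f (1.01 and 50.9 in -LIF+RA), and Tcstv1 and Tcstv3 were at 0 throughout.

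The sum over the 6 Zscan4 copies depends less on how reads were divided between them. It is still open to reads shared with places outside these copies, and to any reads left out because they had several matches. It was 151 and 199.8 normalized counts in the -LIF replicates (113 and 193 reads) and 96.6 and 176 in the -LIF+RA replicates (96 and 256 reads). The lowest sum was in -LIF+RA replicate 1 and the highest in -LIF replicate 2, with -LIF+RA replicate 2 between the -LIF libraries. The means were 175 ± 34.4 and 136 ± 56.3 (SD, n = 2), a ratio of 0.777, and the ratio of 1 -LIF+RA library to 1 -LIF library ran from 0.483 to 1.17. Without -LIF+RA replicate 1 the ratio of means was 1.00, and without -LIF+RA replicate 2 it was 0.550. No test was run on the sum.

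Per 1000000 reads outside Rn45s, which sets aside both the size factors and the ribosomal share, Zscan4 took 14.3 and 16.7 reads in the -LIF replicates. It took 9.11 and 16.0 in the -LIF+RA replicates. The 95% Wilson intervals were 11.9 to 17.2, 14.5 to 19.2, 7.46 to 11.1 and 14.2 to 18.1 in the same order. Only the interval of -LIF+RA replicate 1 lay apart from the others, and it lay apart from its own replicate too. That library had the highest Rn45s share of its group. The part of this share in the result was not tested.

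The copies took very different shares of the Zscan4 reads from library to library. Zscan4d held 35.4% and 47.2% of them in the -LIF replicates, 81.25% in -LIF+RA replicate 1 and 23.4% in -LIF+RA replicate 2. The interval of -LIF+RA replicate 1, 72.3 to 87.8%, lay above those of the -LIF replicates, 27.2 to 44.6% and 40.2 to 54.2%. That of -LIF+RA replicate 2, 18.7 to 29.0%, overlapped the first of these. Zscan4c held 7.08% of Zscan4 reads in -LIF replicate 1 and 42.0% in -LIF replicate 2. In -LIF+RA replicate 1 it held 0 of 96 reads, with an upper limit of 3.85%, and in -LIF+RA replicate 2 it held 19.1%. Zscan4f ran from 1.04% in -LIF+RA replicate 1 to 28.9% in -LIF+RA replicate 2. Zscan4a, at 6 reads and 1 read in the -LIF replicates, held 5.31% and 0.518% there and 17.7% and 15.6% in the -LIF+RA replicates. Its -LIF+RA intervals, 11.4 to 26.5% and 11.7 to 20.6%, lay above its -LIF intervals, 2.46 to 11.1% and 0.0915 to 2.88%. Zscan4e held 17.7% and 1.55% in the -LIF replicates and 0 in the -LIF+RA replicates. The shares of Zscan4b, Zscan4c, Zscan4d and Zscan4f overlapped between the conditions, and the largest contrast was between the -LIF+RA replicates.

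Contrasts of this kind were also present in the sums of the closest pairs, in which a read given to the wrong partner changes nothing. Reads shared with places outside a pair, or left out because they had several matches, can still change its sum. Elsewhere on chromosome 7, outside the placed Zscan4 copies, 1905 tiles of Zscan4f and 1446 of Zscan4c had an identical copy. Zscan4c and Zscan4f together had 35 and 97 reads in the -LIF replicates and 1 and 123 in the -LIF+RA replicates, or 46.8, 100.4, 1.01 and 84.7 normalized counts. Zscan4b and Zscan4e together had 32 and 4 reads in the -LIF replicates and 0 and 33 in the -LIF+RA replicates. Without Zscan4d, the copies summed to 97.6 and 106 normalized counts in the -LIF replicates and to 18.1 and 135 in the -LIF+RA replicates. The pairs were summed after their values had been seen.

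**Figure D3:**
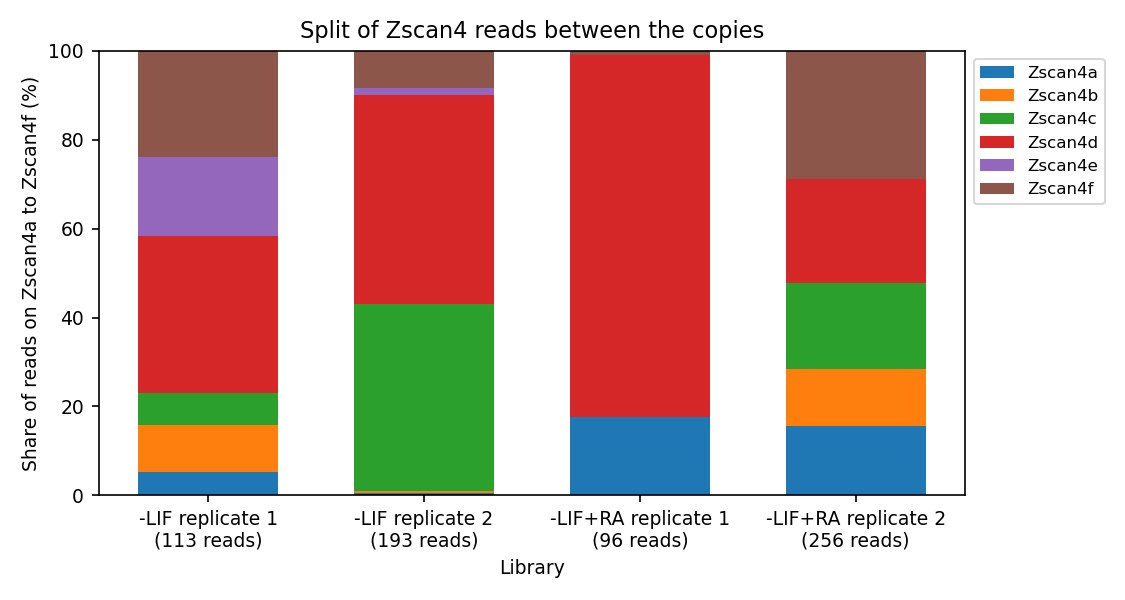
Share of the reads on Zscan4a to Zscan4f (percent, y axis) that each copy took in each library (x axis, with the number of Zscan4 reads). Zscan4d took 81.25% of 96 reads in -LIF+RA replicate 1 and 23.4% of 256 reads in -LIF+RA replicate 2, with the -LIF replicates at 35.4% and 47.2%.

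Between genes, levels were compared per kilobase of exon, as a mean over the 4 libraries. Zscan4d stood highest, at 33.6 normalized counts per kilobase, followed by Zscan4c at 13.9 and Zscan4f at 10.8. Zfp352 and Zscan4b followed at 5.72 and 5.70, and Zscan4e at 4.28. The lowest library of Zscan4d was at 20.7 per kilobase. Zscan4c reached 36.4 per kilobase in 1 library and 0 in another, so the libraries of neighbors in this order overlapped at every step. When the exon length was replaced by the number of unique tiles, the order changed. Zscan4f then stood highest at 339.6 normalized counts per 1000 unique tiles, Zscan4c, Zscan4d, Zscan4b and Zscan4e lay between 58.3 and 68.5, and Zfp352 was at 6.30. How the authors' counting treated reads with several matches is not given in the sources used here, and the order of the copies depends on it.

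The spread between replicates can be set beside that of other genes of like level. Of the 2801 tested genes with means between 13.3 and 66.9, the range of the 5 tested members, 15.9% had no read in at least 1 library. The higher replicate exceeded the lower by a median of 2.14-fold in -LIF and 1.79-fold in -LIF+RA, with 90th percentiles of 15.6 and 6.60 (all on the scale of the normalized count + 1). Zscan4d was near these medians, at 1.75 and 1.88. Zscan4c and Zscan4f differed 34.7-fold and 25.9-fold between the -LIF+RA replicates, past the 90th percentile of that group. Zfp352 differed 28.9-fold between the -LIF replicates and 2.88-fold between the -LIF+RA replicates.

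The other genes of the 2-cell-like program were read from a list of 82 symbols, of which 64 were in the table. Of these, 26 had no read, 22 were below the filter and 16 were tested. None passed the adjusted threshold in limma, and 1 had an unadjusted p under 0.05. Of the 16, 13 had a log2 fold change below 0 and the median was -1.15, against 50.6% of genes below 0 and a median of -0.01 over all tested genes. In 9 of the 16 (56.25%) both -LIF+RA libraries lay below both -LIF libraries, where the share over all tested genes was 18.9%, and in 1 they lay above. The filter used the mean over both groups, so a gene could enter through its -LIF libraries alone. Gm2016, Gm10696, Gm21319, Usp17lb, Sp110 and Gm5039 did so, all with log2 fold changes below 0. Of these, Gm2016, Gm21319 and Usp17lb were also among the genes lower in both -LIF+RA libraries. The shares given for the 16 genes therefore depend in part on the filter. The 3 genes with a log2 fold change above 0 had a mean above 10 in each group. With every gene that had a read tested, 24 of 38 lay below 0, with a median of -0.62. Without -LIF+RA replicate 1 the median of the 16 was -0.73, and over the 4 genes with a mean of at least 50 it was -0.26. The list was chosen with earlier results of these data known, and many of its genes belong to multigene families, whose counts are uncertain where copies are alike. Shared sequence was not measured for them.

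The lowest log2 fold changes were those of Gm2016 and Gm10696. Gm2016, an Eif1a-like gene, had 29.4 and 23.8 normalized counts in the -LIF replicates and 2.01 and 2.07 in the -LIF+RA replicates. The groups did not overlap, and the log2 fold change of -3.18 did not pass the test (limma, Benjamini-Hochberg adjusted p = 0.593). Gm10696 had reads in -LIF replicate 2 only, at 53.8 normalized counts (log2 fold change -2.89, limma adjusted p = 0.837). The highest were Patl2 and Gm8300. Patl2, which encodes an RNA-binding protein of the oocyte, had 12.0 and 29.0 normalized counts in the -LIF replicates and 73.4 and 114 in the -LIF+RA replicates, above both. Its log2 fold change of 2.23 was the largest of the list and did not pass (limma, Benjamini-Hochberg adjusted p = 0.378). Gm8300 overlapped between the groups, with a log2 fold change of 0.78.

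The 4 genes of the list with a mean of at least 50, named after their values were seen, were 2610305D13Rik, Gm7102, Ddit4l and Patl2. The best read, 2610305D13Rik, had 3203 and 10176 normalized counts in the -LIF replicates and 6660 and 4926 in the -LIF+RA replicates, so the groups overlapped (limma, Benjamini-Hochberg adjusted p = 0.999). Gm7102 had 500.2 and 551 in the -LIF replicates and 324 and 308 in the -LIF+RA replicates (log2 fold change -0.73, limma adjusted p = 0.547). Ddit4l, an inhibitor of mTOR signaling, had 187 and 154 against 122 and 116 (-0.51 on the log2 scale, limma adjusted p = 0.797). Both -LIF+RA libraries were lower for Gm7102 and Ddit4l and higher for Patl2, and none of the 4 passed the test.

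The sums of 3 families, also formed after the values were seen, did not overlap between the groups. The Usp17l and Eif1a-like sums were lower and the Tdpoz sum higher in both -LIF+RA libraries. Over all tested genes, both -LIF+RA libraries lay below both -LIF libraries for 18.9% and above them for 19.7%. Usp17la to Usp17le, which encode deubiquitinases, summed to 119 and 80.7 normalized counts in the -LIF replicates (89 and 78 reads). They summed to 18.1 and 36.5 in the -LIF+RA replicates (18 and 53 reads). The ratio of means was 0.273, and single library ratios ran from 0.152 to 0.452. The Eif1a-like genes Gm2022, Gm2016, Gm5662, Gm8994, Gm4027 and BB287469 summed to 115 and 109.7 in the -LIF replicates and to 22.1 and 60.6 in the -LIF+RA replicates, a ratio of means of 0.368. The 5 Tdpoz genes were barely read, with sums of 6.69 and 3.11 in the -LIF replicates (5 and 3 reads) and 9.05 and 7.57 in the -LIF+RA replicates (9 and 11 reads). The Zscan4 sum, whose single library ratios ran from 0.483 to 1.17, overlapped between the groups where these did not. Whether the families differ from Zscan4 in their response was not tested.

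**Figure D4:**
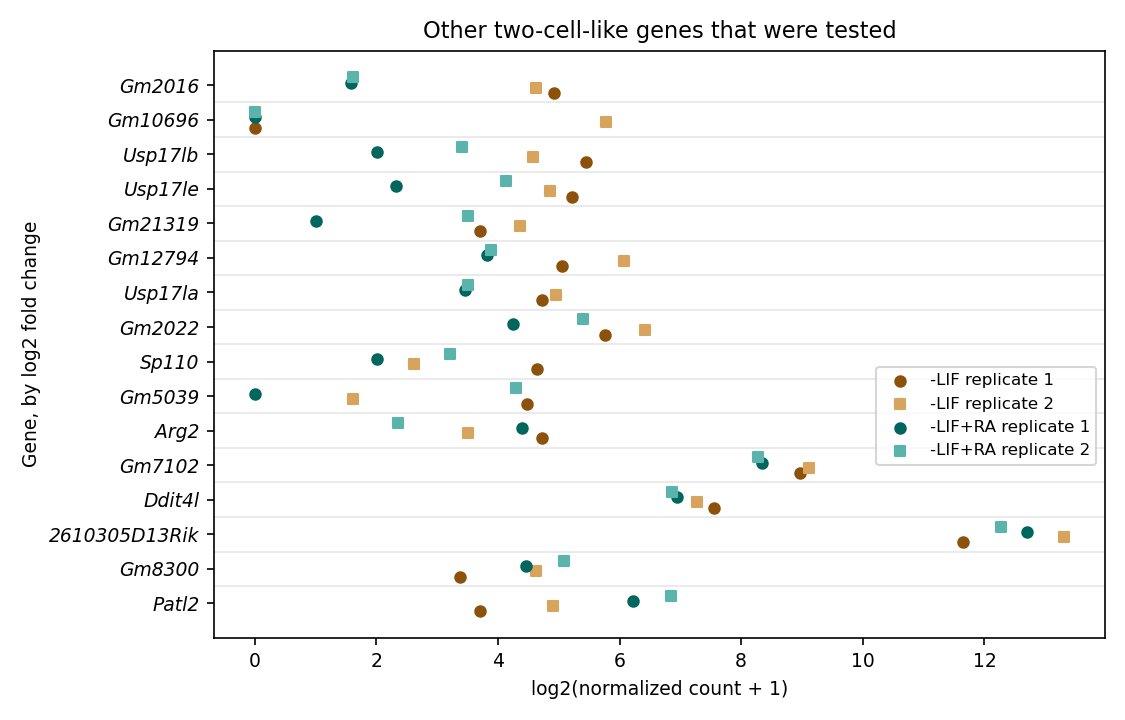
The 16 tested genes of the other 2-cell-like list, ordered by log2 fold change, with log2(normalized count + 1) of each library on the x axis and the colors and shapes of the plot of the 9 genes. Green points of the -LIF+RA libraries lie left of both brown -LIF points in 9 genes and right of them in 1, Patl2, and no gene passed the adjusted threshold.

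Among the genes listed here as activators of the state, Nr5a2 rose with Royalactin and none of the others passed the adjusted threshold. Whether each listed gene acts on the state in these cells was not tested. Of 10 listed activators, 9 were in the table and 6 were tested. All 6 had log2 fold changes above 0, with a median of 0.99. One passed the adjusted limma threshold and 4 had an unadjusted p under 0.05, against 0.493% and 9.34% of all tested genes. Nr5a2, an orphan nuclear receptor that is also a pluripotency factor, had 76.2 and 65.2 normalized counts in the -LIF replicates and 765 and 582 in the -LIF+RA replicates. Its log2 fold change was 3.22 with a standard error of 0.42 (limma, Benjamini-Hochberg adjusted p = 0.00333). Like every call among the 12993 genes, this one was lost when any 1 library was left out or the variance trend was dropped. Tbx3, a T-box factor, had 24.1 and 107 in the -LIF replicates and 295 and 121 in the -LIF+RA replicates (log2 fold change 1.87, limma adjusted p = 0.404). Dppa2 and Dppa4, which act together upstream of Dux and are named after their values were seen, did not overlap between the groups. Dppa4 had 796 and 674 against 1417 and 1821 (log2 fold change 1.13, limma adjusted p = 0.172), and Dppa2 had 559 and 910 against 1283 and 1271 (0.84, limma adjusted p = 0.413). Smarca5 and Nelfa overlapped, with log2 fold changes of 0.08 and 0.21.

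Dux, the transcription factor that directly activates Zscan4 and other 2-cell genes, was too weakly read to test and is named after its values were seen. It had 8.02 and 10.4 normalized counts in the -LIF replicates and 0 and 17.9 in the -LIF+RA replicates, from 6, 10, 0 and 26 reads. The highest and the lowest value were the -LIF+RA libraries, as for Zscan4f. Gata2, named in the same way, had 5.35 and 0 against 13.1 and 11.0 and was also below the filter.

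The repressors of the state were well read in all libraries. All 29 listed genes were tested, with 19 log2 fold changes above 0, 10 below and a median of 0.27. Only Zfp42 (Rex1), a zinc finger factor and pluripotency marker, passed the adjusted threshold. It rose from 491 and 704 to 2726 and 3083 normalized counts (log2 fold change 2.30, limma, Benjamini-Hochberg adjusted p = 0.00371), a call that was lost under the same omissions as that of Nr5a2. Trim28, the corepressor that recruits the histone methyltransferase Setdb1 to silenced repeats, had 10914 and 6323 in the -LIF replicates and 13229 and 15198 in the -LIF+RA replicates. These groups did not overlap, and the log2 fold change of 0.77 did not pass (limma, Benjamini-Hochberg adjusted p = 0.527). At the other end were Myc, with 399.9 and 177 against 164 and 123 (log2 fold change -0.90, limma adjusted p = 0.625), and Sumo2, whose groups overlapped (-0.42, limma adjusted p = 0.792).

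The other SCAN domain genes outside the Zscan4 cluster were set beside it. Of 39 listed, 31 were in the table and 29 tested, with 23 log2 fold changes above 0, 6 below and a median of 0.36. None passed the adjusted threshold in limma, and 1 had an unadjusted p under 0.05. In 12 of the 29 both -LIF+RA libraries lay above both -LIF libraries, against the 19.7% of all tested genes, and in 3 below. The highest were Zkscan4 (2.94, limma adjusted p = 0.664) and Zscan2 (2.48, limma adjusted p = 0.709), each without reads in -LIF replicate 2, and the lowest were Zfp449 and Zfp397 (-0.41 and -0.24). Zscan10, a SCAN factor of pluripotent cells that is named after its values were seen, had 615 and 248 normalized counts in the -LIF replicates and 827 and 642 in the -LIF+RA replicates (log2 fold change 0.90, limma, Benjamini-Hochberg adjusted p = 0.538).

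**Figure D5:**
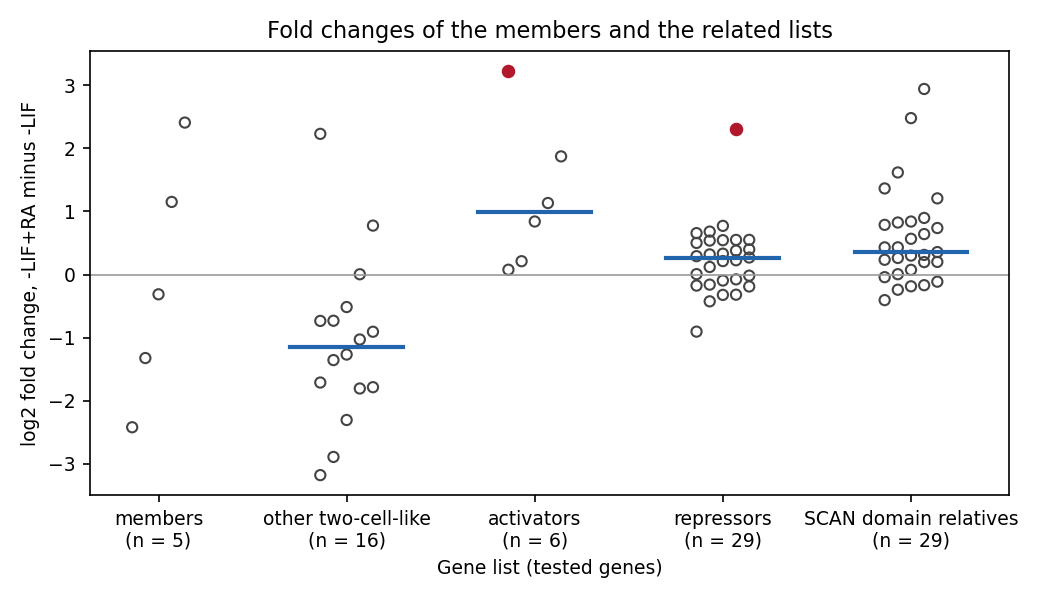
Log2 fold change, -LIF+RA minus -LIF (y axis), of each tested gene among the 9 members and the related lists (x axis, n tested), with filled red points for an adjusted limma p under 0.05 and blue lines for the list medians. The medians are -1.15 for the other 2-cell-like genes, 0.99 for activators, 0.27 for repressors and 0.36 for SCAN domain relatives, and only Nr5a2 and Zfp42 are filled.

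The tested genes whose pattern over the 4 libraries was closest to that of the summed Zscan4 copies were sought by the root-mean-square distance of centered log2 values. They were Mgst3 (0.02), Rplp1 (0.04), Nrcam (0.04), Cyth3 (0.05) and BC003965 (0.05). Each had its lowest value in -LIF+RA replicate 1 and its highest in -LIF replicate 2, as the sum did. Mgst3, for example, had 88.3 and 121 normalized counts in the -LIF replicates and 58.3 and 107 in the -LIF+RA replicates. Single members followed the sum poorly, with Zscan4d at rank 7707 of 12993 genes and the other 4 tested members at ranks 11955 to 12419. With only 4 libraries such nearness is a description.

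Markers of other cell types were read beside these genes. The 8 fibroblast markers summed to 164 and 94.2 normalized counts in the -LIF replicates and to 97.6 and 69.5 in the -LIF+RA replicates, with Postn at 0 in all 4 libraries. The 7 primitive endoderm markers summed to 384 and 295 against 336 and 219. Dab2 made up most of that sum, at 284 and 245 against 188 and 126, while 3 of the 4 tested markers had log2 fold changes above 0, among them Gata4 with both -LIF+RA libraries higher. The 7 trophoblast markers summed to 1796 and 1827 against 530 and 907, where Krt8 and Krt18, keratins of simple epithelia, made up most of the -LIF sum and passed the adjusted limma threshold as lower, and Elf5 was at 0 throughout. Tfap2c of the same list lay the other way, at 37.4 and 104 against 214 and 310, and did not pass (log2 fold change 2.03, limma, Benjamini-Hochberg adjusted p = 0.195). Of the 6 ES cell markers, Sox2, Zfp42 and Esrrb passed the adjusted limma threshold, all higher with Royalactin, against 0.493% of all tested genes. Tdgf1 was lower in both -LIF+RA libraries and did not pass (log2 fold change -0.45, limma adjusted p = 0.730). The part of these differences in the values of the 2-cell-like genes was not tested.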

How the data were processed

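RNA of J1 mESCs was depleted of ribosomal RNA and sequenced in 75 cycles in 2 -LIF and 2 -LIF+RA libraries. The authors aligned the reads to mm9 with TopHat, allowing 2 mismatches, took gene counts from HTSeq-count and divided each count by a DESeq size factor. The deposited table holds the resulting normalized counts, a signal in proportion to read number. Neither the strand option nor the annotation of the counting step is given in the sources used here.

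Within a tolerance of 0.01 read, 100% of values were whole multiples of 1 step per library. In -LIF+RA replicate 1 the step was 1.01, too near 1 to decide automatically that the values are reads, so no count test was run. Instead log2(normalized count + 1) was tested with limma 3.58.1 in R 4.3.3 (two-sided, with a variance trend and p-values adjusted by Benjamini-Hochberg). Genes entered with a mean of at least 10. Adding 1 shrinks the log2 fold changes of weakly read genes. A library with few or no reads can still enlarge or reverse them relative to the group means, as for Zscan4f and Zfp352. The steps were tested on simulated data. Groups and replicates came from the sample labels, and p-values measure only the spread between these libraries.

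The members, lists and tests were chosen with earlier results of these data known. Named are all 9 members and, per list, genes past the adjusted threshold, the 2 highest and the 2 lowest log2 fold changes, and the 5 genes nearest to the summed Zscan4 pattern, with others marked as chosen after their values were seen. Gene positions and coding sequences came from the GENCODE annotation of mm9, aligned with MAFFT 7.526, and promoters from RefSeq (GRCm38.p6). The tiles leave out reads across exon junctions. The alternatives were pseudocounts of 0.1 and 5, other filters, 2 other scalings, a replicate block, limma without the trend and each library left out.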

Additional observations from a re-analysis of the deposited data

How the results depend on the processing

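No member passed the adjusted threshold under any of the 12 alternatives, and neither did any of the other 2-cell-like genes, though with a mean of at least 50 only 1 member was tested. Over all tested genes the 64 calls became 32 with a pseudocount of 0.1, 34 with all genes above 0, 99 with a mean of at least 50, 391 with the replicate block, 0 without the trend and 0 to 0 with each library left out, where the lone library is assumed to vary like the other group. Same-numbered replicates had deviations that correlated at 0.0851 over 2 pairs, so the numbers were not taken to pair the samples. This correlation does not settle the pairing, and Rn45s took the larger share in replicate 1 of both groups. The replicate block called no member. Members with an unadjusted limma p under 0.05 numbered 1 with all genes above 0 (Zscan4e), 1 without the trend (Zscan4a) and 0 to 1 with a library left out (Zscan4a without -LIF replicate 1, Zscan4c without -LIF+RA replicate 2). With a library left out, the log2 fold change of Zscan4c ran from -4.98 to 0.14 and that of Zscan4f from -3.67 to 1.02, both highest without -LIF+RA replicate 1. That of Zscan4a ran from 1.33 to 3.48. That of Zscan4d ran from -0.77 to 0.14, with 0.09 without -LIF replicate 2, and that of Zfp352 from -1.28, without -LIF replicate 1, to 3.58. Member adjusted p-values ran from 0.220, for Zscan4a, to 0.9997.

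Of the other 2-cell-like genes, 24 of 38 lay below 0 with all genes above 0 and 2 of 4 with a mean of at least 50, where other genes were tested, and 12 to 13 of 16 with a library left out. Their median of -1.15 became -0.62 and -0.26 under these filters and ran from -1.69 without -LIF+RA replicate 2 to -0.73 without -LIF+RA replicate 1. The ratio of the summed Zscan4 copies ran from 0.550 to 1.00 over the same omissions. The medians of activators, repressors and SCAN domain relatives stayed above 0 under all alternatives. For these shifts the cause was not tested. With 2 libraries per group, few reads per copy and shared sequence, even large differences of single copies could go undetected at this depth. Log2 fold changes of 2.41 for Zscan4a and -2.42 for Zscan4c did not pass the test. The lack of calls therefore does not show that the members were unchanged.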
